A study of Mus musculus with 24 samples.

Results

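The genes described here are 38 cell cycle and proliferation genes, measured by microarray in mouse lung. They were chosen by name, and their rule uses no measured value, though earlier results of these data were known. The array holds 61 probes for them among 27655 genes in all, and 37 of the 38 passed the filter on background and were tested beside 20616 genes in total. The exception was Ttk, a spindle checkpoint kinase, whose probe was well above background on 3 of 24 arrays. By role, 9 members serve DNA replication and nucleotide supply, and 5 are cyclins, Cdk1 and the transcription factor Foxm1. A further 11 are mitotic kinases and factors of the spindle checkpoint and anaphase, 9 are spindle motors and cytokinesis proteins, and 4 belong to chromosomes and kinetochores.

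The study's title asks what blocking TGF-beta and PDGF signals together does to the fibrosis that follows lung irradiation. RNA came from whole shock-frozen lung, 24 days after irradiation in the irradiated groups. There were 12 groups of 2 arrays, from 6 drug arms each with and without irradiation. The arms were no drug (untreated), each of Ly, Imatinib and Su alone, and Ly joined with either Imatinib or Su. Irradiated groups are written IR, or IR followed by the drugs, as in IR+Ly+Su. Imatinib inhibits the ABL, KIT and PDGF receptor kinases. Ly and Su are used here by those names alone. The labels used here give no strain, age, radiation dose or drug dose, and they call the 2 arrays of a group biological replicates without tying them to animals, so the p-values measure the spread between these samples.

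Levels are log2 signals relative to the 75th percentile of the same array, so 0 is the level of a probe at that percentile. Differences are on the same log2 scale and are given with their standard error (SE). Tests are limma's, with 1 mean per group over all 24 arrays and Benjamini-Hochberg adjustment over the 20616 genes, and a gene is called at an adjusted p under 0.05. In bulk lung, fewer cells of a type and less RNA per cell cannot be told apart.

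The 24 arrays lay on 6 slides of 4. No slide held both irradiated and unirradiated samples, so in any comparison of an irradiated with an unirradiated group, slide and irradiation cannot be told apart. Of the drug comparisons, Ly with untreated and IR+Ly with IR lay on a single slide. In all other drug comparisons the groups lay on different slides, so drug and slide cannot be told apart. The lung label was checked with 8 alveolar type II markers, Sftpc among them, and all 8 were above background on every array. Between 62.0% and 78.5% of spots were well above background. On 3 arrays of 1 slide (IR+Ly+Imatinib 2 and both IR+Ly+Su arrays) that threshold lay lower, at log2 levels of -6.82 to -6.51 against -5.68 to -4.94 on the others.

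A pair of arrays stood apart. The IR 1 array had the brightest 75th percentile (2325 signal units against 655 to 1654 on the others). It exceeded IR 2 in 36 of 37 tested members, by a median of 1.26, where the median absolute difference of the pair over all genes was 0.45. The IR+Ly+Imatinib 1 array had the most outlier spots, 330, and exceeded its partner in 37 of 37 members, by a median of 0.85 against 0.18 over all genes. The highest irradiated value was that of IR+Ly+Imatinib 1 in 30 members and of IR 1 in 7. The lowest irradiated value was that of IR 2 in 29 members.

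As background, the cell cycle runs from licensing and copying of DNA in S phase to chromosome segregation in mitosis. Genes of the first step are largely driven by E2F factors, and genes of the second by the MuvB, B-MYB and FOXM1 complexes, which act at a cell cycle genes homology region (CHR) beside CCAAT boxes bound by NF-Y. In resting cells the DREAM complex holds both sets down, and p53 acts on them through the CDK inhibitor p21, the product of Cdkn1a. Adult lung has few dividing cells. After thoracic irradiation, proliferation of alveolar, vascular and mesenchymal cells belongs to repair and to fibrosis.

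The promoters of members that moved together are shown for these motifs. RefSeq (GRCm38.p6) gave windows of 300 bases, 250 before and 50 after the start, for 32 of 38 members, 34 windows in all. Searched on both strands, TTTGAA (the CHR) was in 58.8% of member windows and in 17.9% of all 32851 windows. CCAAT was in 79.4% and 37.4%, and TTTNNCGC (an E2F site) in 17.6% and 5.17%. The letters of matches may overlap, as they do for E2F in Mcm6. By role, a CHR match was found in 1 of 9 replication members, 2 of 3 cyclin and Cdk1 members, 6 of 9 mitotic kinase and checkpoint members, 6 of 7 spindle members and 3 of 4 chromosome members. E2F matches were in 4 of 9, 1 of 3, 0 of 9, 1 of 7 and 0 of 4. A match is a description of the letters and no evidence of binding, and no match says only that these letters are not in the window.

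The 250 bases before the start are printed on the strand of the gene for 6 members. They were taken from the 2 highest irradiation differences of each role group among members with a window, so Tpx2, Aurkb and Pbk, which had none, were passed over, as were all replication members once 6 were reached. They are Cdk1 at chr10:69352913-69353162 on the minus strand, Ccnb1 at chr13:100786487-100786736 on the minus strand, Top2a at chr11:99024190-99024439 on the minus strand, Anln at chr9:22389207-22389456 on the minus strand, Prc1 at chr7:80294201-80294450 on the plus strand and Birc5 at chr11:117848987-117849236 on the plus strand. Capitals mark matches of the 3 motifs, those on the opposite strand appearing as their reverse complement.
Cdk1: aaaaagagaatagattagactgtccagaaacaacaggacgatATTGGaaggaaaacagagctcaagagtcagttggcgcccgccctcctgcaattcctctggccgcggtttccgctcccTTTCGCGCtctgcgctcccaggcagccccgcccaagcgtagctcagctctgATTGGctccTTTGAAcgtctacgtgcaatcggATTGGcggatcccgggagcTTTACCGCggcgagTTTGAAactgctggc
Ccnb1: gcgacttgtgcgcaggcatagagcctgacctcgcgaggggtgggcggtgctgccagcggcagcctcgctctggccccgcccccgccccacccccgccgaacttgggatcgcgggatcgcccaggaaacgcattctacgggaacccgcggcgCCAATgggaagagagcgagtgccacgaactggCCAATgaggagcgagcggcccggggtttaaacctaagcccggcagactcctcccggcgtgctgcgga
Top2a: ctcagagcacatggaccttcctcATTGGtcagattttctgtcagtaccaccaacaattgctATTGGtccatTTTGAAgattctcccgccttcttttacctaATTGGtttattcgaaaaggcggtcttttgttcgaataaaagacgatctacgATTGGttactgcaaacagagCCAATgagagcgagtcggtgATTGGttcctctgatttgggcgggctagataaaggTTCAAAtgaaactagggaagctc
Anln: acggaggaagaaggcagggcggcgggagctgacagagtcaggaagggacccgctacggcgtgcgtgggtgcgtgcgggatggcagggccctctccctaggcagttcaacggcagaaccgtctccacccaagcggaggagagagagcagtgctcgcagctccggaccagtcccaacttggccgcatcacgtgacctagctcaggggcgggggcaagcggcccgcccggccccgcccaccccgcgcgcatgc
Prc1: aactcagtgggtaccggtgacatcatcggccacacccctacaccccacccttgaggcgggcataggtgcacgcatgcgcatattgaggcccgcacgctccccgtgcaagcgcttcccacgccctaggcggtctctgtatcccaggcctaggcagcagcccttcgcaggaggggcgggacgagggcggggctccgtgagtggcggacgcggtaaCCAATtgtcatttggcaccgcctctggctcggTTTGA
Birc5: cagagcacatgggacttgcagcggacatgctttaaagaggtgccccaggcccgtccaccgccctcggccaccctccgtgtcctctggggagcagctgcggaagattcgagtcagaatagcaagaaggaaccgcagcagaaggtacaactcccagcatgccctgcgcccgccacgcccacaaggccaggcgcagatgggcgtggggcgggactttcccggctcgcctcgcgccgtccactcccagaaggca

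Cdk1 was the 1 member with all 3 motifs. Ccnb1 had 2 CCAAT boxes and no CHR match, and Top2a had both a CCAAT box and CHR matches. The CHR matches of Anln lie after the start, at bases 22 to 27 and 29 to 34, outside the printed stretch. The match of Prc1 crosses the start of the first of its 2 listed windows, so the last of its 6 bases is not shown. Birc5 had none of the 3, like Melk, Nusap1 and Tk1.

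For contrast, and chosen after their values were seen, Pcna (chr2:132253181-132253430, minus strand) and Mcm6 (chr1:128359706-128359955, minus strand), the members with the lowest irradiation difference, are printed the same way.
Pcna: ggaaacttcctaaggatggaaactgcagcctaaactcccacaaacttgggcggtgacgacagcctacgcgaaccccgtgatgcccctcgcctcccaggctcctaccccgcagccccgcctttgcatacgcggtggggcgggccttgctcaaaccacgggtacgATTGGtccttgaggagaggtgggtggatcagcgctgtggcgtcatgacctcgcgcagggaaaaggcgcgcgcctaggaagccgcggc
Mcm6: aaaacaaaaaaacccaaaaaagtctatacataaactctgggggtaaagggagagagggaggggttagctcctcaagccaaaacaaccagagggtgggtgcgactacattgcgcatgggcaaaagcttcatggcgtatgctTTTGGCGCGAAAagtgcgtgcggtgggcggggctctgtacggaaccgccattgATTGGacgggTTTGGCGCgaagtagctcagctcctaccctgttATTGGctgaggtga

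Neither window held a CHR match. Mcm6 had 3 E2F matches, the first pair overlapping, and Pcna had 1 CCAAT box and no E2F match.

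Irradiated lung had higher levels of most cell cycle genes than unirradiated lung 24 days after irradiation. Averaged over the 6 drug arms, 31 of 37 tested members were higher and 0 were lower. Of all genes tested, 16.4% were higher and 16.4% lower. The median member difference was 0.64, against 0.01 over all genes, and 35 of 37 differences were positive. The 6 highest measured differences were those of Aurkb, Cdk1, Pbk, Ccnb1, Top2a and Tpx2, and the 6 lowest those of Mcm6, Pcna, Rrm1, Tyms, Mcm3 and Bub1, as the plot of averaged differences shows. Aurkb and Anln passed the background filter through irradiated groups alone, so they had to be higher there. Of the other 35 members 29 were higher, with a median of 0.63, and of the 32 above background on all 24 arrays 26 were.

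**Figure D1:**
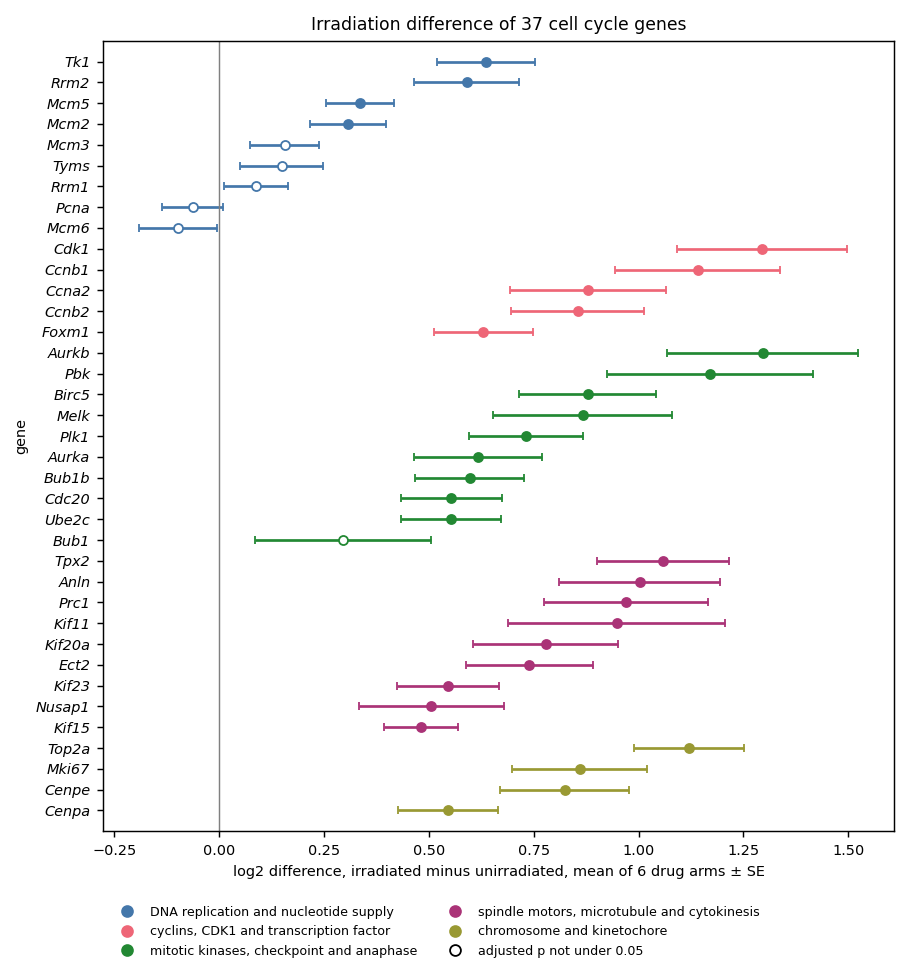
Log2 difference of each of the 37 tested genes, irradiated minus unirradiated, as the mean of 6 drug arms, with bars of 1 SE and colours by role. Filled points have an adjusted p under 0.05 and open points do not. Aurkb (1.30, with all unirradiated levels at background) and Cdk1 (1.29) lie furthest right, and Mcm6 (-0.10) and Pcna (-0.06) lie left of 0.

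Among the cyclins, Cdk1 and Foxm1, 5 of 5 rose, with a median of 0.88. Cdk1, the kinase that drives entry into mitosis, had levels of -4.65 to -2.67 (median -3.05) on the 12 unirradiated arrays and -2.70 to -0.46 (median -2.10) on the 12 irradiated ones. Of the irradiated arrays, 11 of 12 lay above every unirradiated one, and IR 2 was the exception. The difference was 1.29 ± 0.20 (SE), a 2.45-fold rise (limma adjusted p = 0.000389). Ccnb1, the cyclin B partner of Cdk1, lay at -4.80 to -3.88 (median -4.30) unirradiated and at -4.26 to -1.92 (median -3.29) irradiated. Its levels overlapped only through IR 2, and it rose by 1.14 ± 0.20 (adjusted p = 0.000729). Foxm1, the transcription factor of the G2 and mitosis genes, moved from -3.37 to -2.90 (median -3.06) to -2.98 to -1.48 (median -2.51). In Foxm1, 10 of 12 irradiated arrays lay above every unirradiated one, and the rise was 0.63 ± 0.12 (adjusted p = 0.00128). Ccna2 (cyclin A, 0.88) and Ccnb2 (0.85) also rose.

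Among mitotic kinases and factors of the checkpoint and anaphase, 9 of 10 tested rose, with a median of 0.67, or 8 of 9 with a median of 0.62 leaving out Aurkb. Aurkb, the kinase of the chromosomal passenger complex, lay at -6.55 to -4.88 (median -5.66) unirradiated and at -5.70 to -2.80 (median -4.45) irradiated. Its probe was above background on 9 of 12 irradiated arrays and on 0 of 12 unirradiated ones. Its measured difference was 1.30 ± 0.23 (adjusted p = 0.000841). Since Aurkb passed the filter through irradiated groups alone, this call is no separate support. Least folds are given below only where every array of the brighter group was above background. They set the mean of that group against, for each dim array, the higher of the lowest level above background there and the probe's own level.

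Pbk, a mitotic kinase, lay at -4.32 to -3.15 (median -3.65) unirradiated and at -3.72 to -0.82 (median -2.55) irradiated. All irradiated arrays but IR 2 were above every unirradiated one, and the rise was 1.17 ± 0.24 (adjusted p = 0.00262). Smaller rises were measured for Birc5 (survivin, of the passenger complex, 0.88), the kinases Melk (0.87), Plk1 (0.73) and Aurka (0.62), and the checkpoint kinase Bub1b (0.60). Cdc20 and Ube2c, an activator and the ubiquitin-conjugating enzyme of the anaphase-promoting complex, each rose by 0.55. Bub1, a second checkpoint kinase, was the exception, with levels of -3.97 to -3.09 (median -3.52) and -4.39 to -2.01 (median -3.28). Both ends of the irradiated range of Bub1 were IR arrays, and its difference of 0.30 ± 0.21 did not pass (adjusted p = 0.299).

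All 9 spindle and cytokinesis members rose, with a median of 0.78, or 8 of 8 with a median of 0.76 leaving out Anln. Tpx2, which activates Aurora A on spindle microtubules, lay at -3.75 to -2.80 (median -3.03) unirradiated and at -2.59 to -0.83 (median -2.15) irradiated. It was the 1 member whose groups did not overlap, as held for 0.388% of all genes in that direction, and it rose by 1.06 ± 0.16 (adjusted p = 0.000278). Anln, a scaffold of the contractile ring, was above background on 10 irradiated arrays and on 1 unirradiated array. Its measured difference of 1.00 ± 0.19 (adjusted p = 0.00146) therefore rests on unirradiated levels that were nearly all at background. Prc1 (0.97), which bundles the central spindle, the kinesins Kif11 (0.95), Kif20a (0.78) and Kif23 (0.55), Ect2 (0.74), which activates RhoA in cytokinesis, and Nusap1 (0.51) rose as well.

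Kif15, a spindle kinesin, rose by 0.48 ± 0.09 (adjusted p = 0.00114), but this call depended on its probe. Its other 2 probes, not above background on any array, had differences of -0.63 and -0.38, and the mean of the probes gave -0.18. The Kif11 probe exceeded background on 9 arrays after irradiation and on 3 without it. The call of Nusap1 (adjusted p = 0.0376) held in 9 of 24 repeats that each left out 1 array, and the other 30 called members held in all 24.

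All 4 chromosome members rose, with a median of 0.84. Mki67, the gene of the Ki-67 antigen that marks cycling cells, lay at -0.73 to 0.13 (median -0.19) unirradiated and at -0.18 to 1.78 (median 0.53) irradiated. In Mki67, 11 of 12 irradiated arrays lay above every unirradiated one, IR 2 being the exception, and the rise was 0.86 ± 0.16 (adjusted p = 0.00126). Top2a, the topoisomerase that untangles chromosomes, lay at -4.56 to -3.74 (median -4.04) and at -3.87 to -1.62 (median -2.94). Its overlap again came from IR 2, and its rise of 1.12 ± 0.13 had the smallest adjusted p of the members, 5.16e-05. The kinetochore genes Cenpe and Cenpa rose by 0.82 and 0.55.

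Of the 9 members of DNA replication and nucleotide supply 4 rose, and the median difference was 0.16, the lowest of the role groups. Rrm2, the regulated subunit of ribonucleotide reductase, lay at -3.30 to -2.86 (median -3.11) unirradiated and at -3.28 to -1.55 (median -2.40) irradiated, with 9 of 12 irradiated arrays above all unirradiated ones. It rose by 0.59 ± 0.13 (adjusted p = 0.00294). Tk1, the thymidine kinase of S phase, rose by 0.64 ± 0.12 (adjusted p = 0.00118). Mcm2, of the replicative helicase, lay at -1.57 to -1.04 (median -1.40) and at -1.51 to -0.21 (median -1.05). The ranges of Mcm2 overlapped widely, and its rise was 0.31 ± 0.09 (adjusted p = 0.0187), near that of Mcm5 at 0.34.

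Pcna, the sliding clamp of DNA polymerase, lay at 2.99 to 3.26 (median 3.12) unirradiated and at 2.82 to 3.76 (median 3.02) irradiated. Mcm6, a further helicase subunit, lay at 2.52 to 3.18 (median 3.11) and at 2.74 to 3.42 (median 2.87), the latter over 11 arrays since its spot on IR+Ly 1 was an outlier. In both genes the irradiated median was the lower, and the IR 1 array was the highest of all. The 6 Pcna levels of IR+Imatinib, IR+Su and IR+Ly+Su, at 2.82 to 2.98, lay below all 12 unirradiated ones. Their differences of -0.06 ± 0.07 (adjusted p = 0.536) and -0.10 ± 0.09 (adjusted p = 0.442) did not pass. Nor did those of Rrm1, the large subunit of the reductase (0.09 ± 0.08, adjusted p = 0.40), of Tyms, thymidylate synthase (0.15 ± 0.10, adjusted p = 0.262), and of Mcm3 (0.16 ± 0.08, adjusted p = 0.160). The levels of these 3 overlapped between groups, with irradiated and unirradiated medians of 0.82 and 0.76 in Rrm1, 0.62 and 0.49 in Tyms, and 0.91 and 0.75 in Mcm3.

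**Figure D2:**
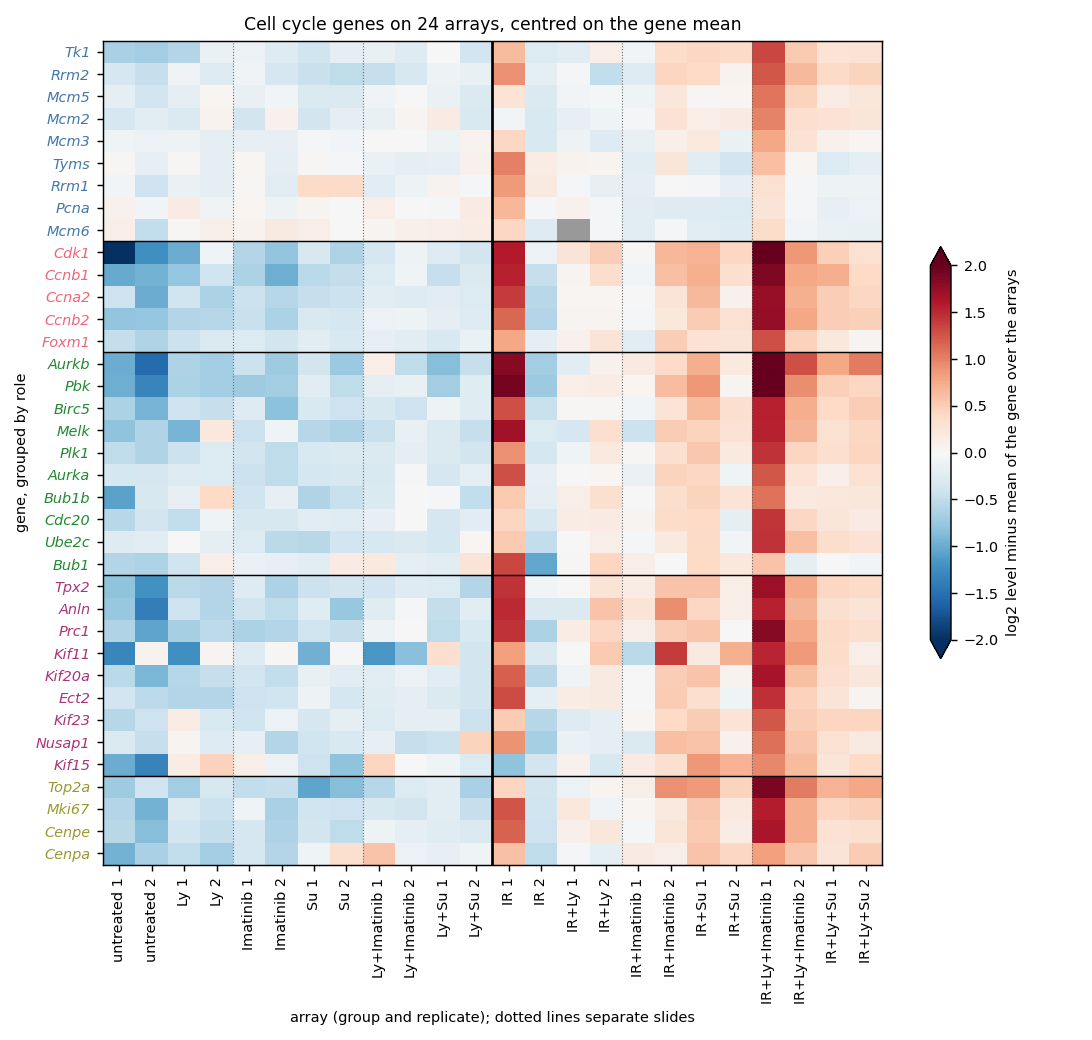
Level of each of the 37 tested genes on each of 24 arrays, as log2 level minus the mean of the gene, with unirradiated arrays left of the heavy line, dotted lines between slides and genes grouped by role. Red is above the mean, blue below, and grey marks the missing Mcm6 value. IR 1 and IR+Ly+Imatinib 1 are the reddest columns, with medians of 0.91 and 1.44 over all 38 members, and IR 2 is blue, with a median of -0.34.

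Without IR 1 and IR+Ly+Imatinib 1 together, 30 members were higher and Pcna was lower (-0.15, adjusted p = 0.0288). With slide as a random block 27 members were called higher, where 3368 of all genes were called in either direction. As means of 3 slides against 3 no member passed, and 1 of all genes was called. There 27 of 37 members had an unadjusted p under 0.05. The share of all genes that did is not given here, so this count is not read as support for the rise. With normexp background correction 9 members were called higher, or 29 where spots with a feature or background outlier flag were kept out of its parameters.

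The heat map shows the irradiated rise across slides. Of the 37 members, 12 had 11 of 12 irradiated arrays above every unirradiated one, and in each of these 12 the array that was not above was IR 2. The share of all genes that met this was not counted. Markers of other cell types moved with the comparison. Of fibroblast markers, 4 of 8 were higher and 1 lower, and their summed level (in multiples of the array's 75th percentile) was 78.6 to 105 (median 88.4) unirradiated and 69.7 to 195 (median 112) irradiated. The fibroblast sum was highest on IR 1, IR+Ly+Imatinib 1 and IR+Imatinib 2, at 195, 195 and 189. Of macrophage markers 5 of 11 were higher, with sums of 266 to 498 and 294 to 400.

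Of T and NK cell markers 6 of 12 were lower, with sums of 9.40 to 21.9 (median 12.1) and 6.69 to 15.4 (median 9.53). Of ciliated cell markers 3 of 6 were lower, and their sums did not overlap, at 40.9 to 52.3 against 22.5 to 39.3. Of thymocyte and germinal centre markers 0 of 3 tested were called by limma at an adjusted p under 0.05, and Rag2 was above background on 0 arrays. Of the other markers, those higher and lower numbered 1 and 0 of 8 for alveolar type II cells, 1 and 3 of 5 for alveolar type I cells, 1 and 2 of 8 for endothelium, 1 and 0 of 9 for B and plasma cells, 1 and 1 of 6 for neutrophils and 1 and 2 of 6 for erythroid cells. The part of these cell types in the rise of the cell cycle genes was not tested.

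Cell cycle genes outside the 38 were taken from wider lists. The counts and medians of these lists keep any gene that passed the background filter through irradiated groups alone, as Kif18b did. Such a gene had to be higher there, so these values are no separate support for the rise of the 38. Of other mitotic genes 42 of 60 were higher and 1 was lower, with a median of 0.61. The highest were Ckap2, a microtubule-associated protein (1.74), Kif18b, a kinesin of the mitotic spindle, Iqgap3 (1.30) and Cep55 (1.27), the last an abscission factor. The Kif18b probe exceeded background on 6 of 12 irradiated and 0 of 12 unirradiated arrays, so its measured difference of 1.51 gives no fold. The lowest were Pttg1, securin, which fell by 0.37 (adjusted p = 0.000413), and Zwilch at -0.14 (adjusted p = 0.134).

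Other replication genes were closer to the genome as a whole, with 9 of 34 higher, 4 lower and a median of 0.03. Cdc45 and Gins2, which complete the replicative helicase, each rose by 0.61, Pole2 by 0.57 and Mcm10 by 0.53. Gmnn, the licensing inhibitor geminin, fell by 0.35, and Pold1, a polymerase delta subunit, fell by 0.22. Of recombination and checkpoint genes, 9 of 20 were higher and 1 lower, with a median of 0.32. Fanci (0.76) and Chek1 (0.75) rose, Fanca fell by 0.36 and Tipin stood at -0.08 (adjusted p = 0.291).

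Among G1 cyclins and kinases 5 of 10 were higher and 1 lower. Cdk2 (0.60), Ccnd1 (0.57) and Ccne1 (0.55) rose, while Ccne2 at 0.60 (adjusted p = 0.0601) and Cdk4 at 0.06 (adjusted p = 0.703) did not pass, and Ccnd3 fell by 0.28. Of E2F, RB and DREAM genes 6 of 18 were higher and 5 lower. E2f4 (0.94), the atypical repressors E2f7 (0.78) and E2f8 (0.70), and E2f3 (0.50) rose, and the MuvB subunits Lin52 and Lin37 fell by 0.31 and 0.25. The E2f4 difference ranged over the arms from 0.13 with no drug to 1.55 with Ly+Su.

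The CDK inhibitors were split, with 2 of 7 higher and 3 lower. Cdkn1a, the p53 target p21 that stops CDK2 and CDK1, had levels of -0.39 to 1.38 unirradiated and 1.07 to 3.21 irradiated. The IR arrays stood at 3.21 and 2.41, IR 1 being the highest of all, while both IR+Su arrays and IR+Ly+Su 1 lay within the unirradiated range. Cdkn1a rose by 1.06 ± 0.14 (adjusted p = 0.000138). Cdkn2a, the locus of p16 and p19ARF, rose by 1.11, and Cdkn2d, Cdkn1c and Cdkn1b fell by 0.54, 0.35 and 0.31. Cdkn2c (0.15) and Cdkn2b (0.04) did not pass.

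Irradiation alone was compared with no treatment. All 37 differences were positive, with a median of 0.85, and 6 members rose, where 7.45% of all genes did. Cdk1 stood at -4.65 and -3.80 untreated and at -0.99 and -2.70 in IR, and rose by 2.38 ± 0.50 (adjusted p = 0.0115). Tpx2 stood at -3.35 and -3.75 untreated and at -1.11 and -2.59 in IR, a rise of 1.70 ± 0.38 (adjusted p = 0.0158). In both genes each IR array was above both untreated ones, with IR 1 far higher.

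Ccnb1 was at -4.80 and -4.75 untreated and at -2.25 and -4.26 in IR (1.52 ± 0.48, adjusted p = 0.0497). Rrm1 was at 0.79 and 0.44 against 1.69 and 1.02 (0.75 ± 0.19, adjusted p = 0.0227). The groups did not overlap in either. Anln and Aurkb were not above background in untreated lung and were above it on 1 of 2 IR arrays. Their measured differences were 1.67 ± 0.47 and 1.83 ± 0.56 (adjusted p = 0.0332 and 0.0445). With 1 IR array at background as well, no least fold is given. Both genes passed the filter through irradiated groups alone, so their calls are no separate support.

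Mki67, at -0.37 and -0.73 untreated and at 1.47 and -0.18 in IR, did not pass (1.19 ± 0.39, adjusted p = 0.0564). Nor did Foxm1 (0.83 ± 0.29, adjusted p = 0.0662), Rrm2 (0.75 ± 0.31, adjusted p = 0.105), Top2a (0.58 ± 0.32, adjusted p = 0.214), Pcna (0.31 ± 0.18, adjusted p = 0.241), Mcm6 (0.26 ± 0.22, adjusted p = 0.430) or Mcm2 (0.09 ± 0.22, adjusted p = 0.796). Of all members 24 of 37 did not overlap between the groups, where 23.7% of all genes did not in that direction.

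The calls rested on single arrays, though the called members kept positive differences. That of Cdk1 was 1.53 without IR 1 and 3.23 without IR 2, and that of Ccnb1 0.51 and 2.52. Where the 2 groups were fitted alone, 0 members were called. Of macrophage markers 8 of 11 were called higher in this comparison. Their summed levels overlapped, at 338 and 498 untreated and at 355 and 400 in IR. Of fibroblast markers 3 of 8 were higher, with sums of 99.7 and 83.7 untreated and 195 and 135 in IR. The part of these cell types was not tested.

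**Figure D3:**
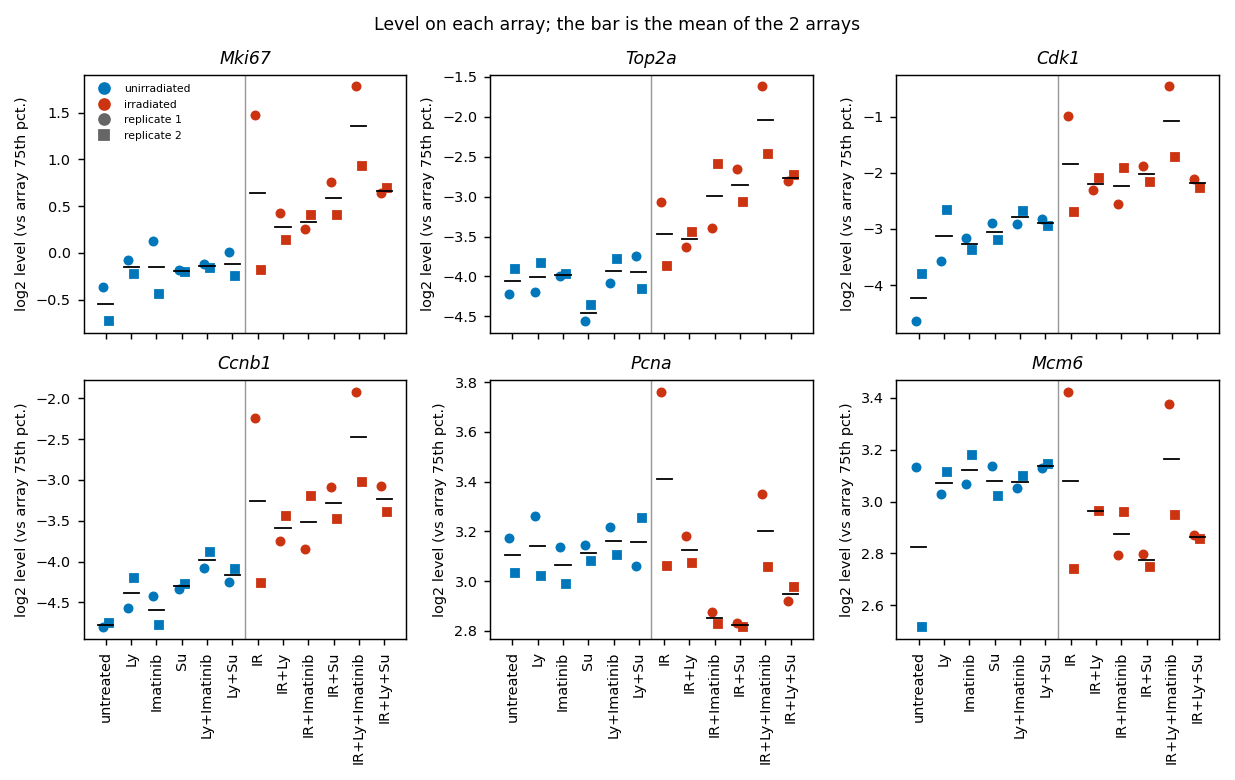
Log2 level relative to the 75th percentile of the array for 6 genes on all 24 arrays, in 12 groups of 2 (circles replicate 1, squares replicate 2, bars the mean), unirradiated in blue and irradiated in red. Mki67, Top2a, Cdk1 and Ccnb1 are higher in the irradiated groups, with IR 1 and IR+Ly+Imatinib 1 well above their partners. Pcna and Mcm6 are highest on IR 1 (3.76 and 3.42), and Pcna lies below all unirradiated arrays in IR+Imatinib, IR+Su and IR+Ly+Su.

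In the Ly arm, IR+Ly against Ly, 0 of 37 members passed in limma, and 0 had an unadjusted p under 0.05, where 0.0437% and 5.9% of all genes did. The median difference was 0.43 and 29 of 37 were positive. Ect2 stood at -2.50 on both Ly arrays and at -1.76 and -1.73 in IR+Ly (0.76 ± 0.37, adjusted p = 0.871). Kif15 stood at -4.28 and -3.98 against -4.35 and -4.75 (-0.42 ± 0.22, adjusted p = 0.885). The groups did not overlap in either gene, and they lay in opposite directions. Cdk1 followed with 0.92 ± 0.50 (adjusted p = 0.891).

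In the Imatinib arm 0 of 37 passed in limma (2.76% of all genes did), and 3 had an unadjusted p under 0.05 (18.7%). They were Top2a, at -4.00 and -3.97 in Imatinib and -3.39 and -2.59 in IR+Imatinib (0.99 ± 0.32, adjusted p = 0.116), Ccnb1 (1.08 ± 0.48, adjusted p = 0.246) and Anln (1.04 ± 0.47, adjusted p = 0.253). Anln passed the filter through irradiated groups alone, IR+Imatinib among them, so its place here is no separate support. The median over members was 0.54, and 35 of 37 were positive.

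In the Su arm 2 of 37 rose (4.72% of all genes), and the median was 0.70. Kif15 stood at -4.85 and -5.24 in Su and at -3.57 and -3.73 in IR+Su, a rise of 1.39 ± 0.22 (adjusted p = 0.00285). Top2a stood at -4.56 and -4.36 against -2.66 and -3.06, a rise of 1.6 ± 0.32 (adjusted p = 0.00956). Both genes were separated between groups by more than either pair of arrays differed. The next was Bub1b, at -3.01 and -2.86 against -1.97 and -2.13 (0.88 ± 0.32, adjusted p = 0.0881). The call of Top2a was lost without Su 1, Su 2 or IR+Su 1. Fitting the 2 groups alone gave more calls. The share of all genes called in that fit is not given here, so these calls are not read as a result about the members.

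In the Ly+Imatinib arm all 37 differences were positive, the median was 1.19 and 6 members rose (2.41% of all genes). Top2a stood at -4.08 and -3.78 in Ly+Imatinib and at -1.62 and -2.47 in IR+Ly+Imatinib, and rose by 1.88 ± 0.32 (adjusted p = 0.00693). Rrm2 stood at -3.25 and -3.11 against -1.55 and -2.13 (1.34 ± 0.31, adjusted p = 0.0334). Each irradiated array of both genes was above both unirradiated ones. Tpx2 at 1.56 ± 0.38 (adjusted p = 0.0426), Ube2c at 1.32 ± 0.29 (0.0281), Tk1 at 1.13 ± 0.29 (0.0474) and Mcm5 at 0.79 ± 0.20 (0.0443) made up the 6.

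The calls rested on single arrays. Without IR+Ly+Imatinib 1 the difference was 1.46 for Top2a and 1.05 for Rrm2, and without IR+Ly+Imatinib 2 it was 2.31 and 1.63. With the 2 groups fitted alone, 0 members were called. Mki67 in this arm, at -0.11 and -0.16 against 1.78 and 0.93, did not pass (1.49 ± 0.39, adjusted p = 0.0524).

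In the Ly+Su arm 0 of 37 passed in limma (3.38% of all genes did) and 6 had an unadjusted p under 0.05 (17.7%). The 3 with the smallest p were Top2a, at -3.74 and -4.16 against -2.81 and -2.73 (1.18 ± 0.32, adjusted p = 0.0617), Aurkb, above background on 0 of 2 and 2 of 2 arrays (at least 2.15-fold, measured difference 1.56 ± 0.56, adjusted p = 0.157), and Kif23 (0.73 ± 0.30, adjusted p = 0.209). Aurkb passed the filter through irradiated groups alone, IR+Ly+Su among them, so its fold and its place here are no separate support. The median over members was 0.51.

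**Figure D4:**
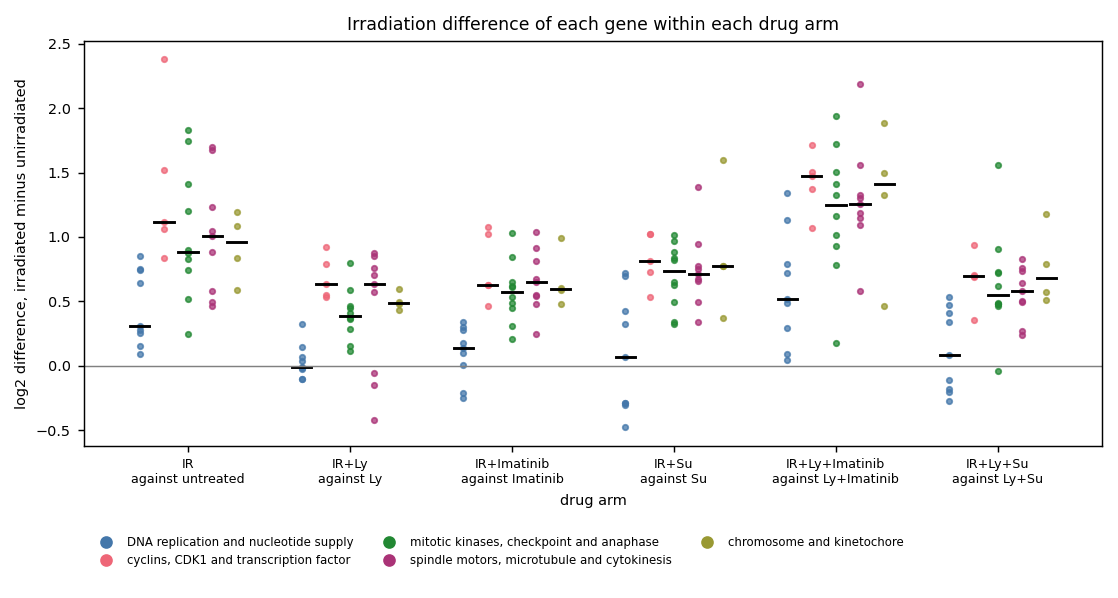
Log2 difference of each tested gene, irradiated minus unirradiated, within each of 6 drug arms, coloured by role, with bars at the median of each role. Replication genes (blue) have the lowest median in every arm, from -0.01 (Ly) to 0.52 (Ly+Imatinib). Single genes of other roles can lie lower, as Kif15 does in the Ly arm (-0.42). The other roles have positive medians in every arm.

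In each arm the replication members had the lowest median of the 5 role groups, as the plot by drug arm shows. The median of the replication members was 0.31 with no drug, -0.01 with Ly, 0.14 with Imatinib, 0.07 with Su, 0.52 with Ly+Imatinib and 0.09 with Ly+Su. That of the cyclins, Cdk1 and Foxm1 was 1.12, 0.63, 0.63, 0.81, 1.47 and 0.70. These medians are descriptions, and the differences between roles were not tested. Over the arms, 26 members had a positive difference in all 6, 7 in 5, 2 (Rrm1 and Tyms) in 4 and 2 (Pcna and Mcm6) in 2.

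Whether the irradiation difference varied with the drug arm was asked with limma's F test of the interaction. It called 0 of 37 members, where 1.07% of all genes were called, and 3 had an unadjusted p under 0.05, where 18.4% of all genes did. They were Kif15 (adjusted p = 0.0774), Rrm1 (0.153) and Top2a (0.268). The test sets each arm against the difference with no drug, which rests on the IR arrays. IR 1 exceeded IR 2 in 36 of 37 members, by a median of 1.26.

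Next, each drug was set against irradiation alone. These 5 comparisons share the 2 IR arrays, which differed most within their group, so their values stand side by side and are not independent. All but the one with Ly also lay across slides, so drug and slide cannot be told apart in them. Ly added to irradiation changed 0 of 37 members in limma and 2 had an unadjusted p under 0.05, where 0.863% and 25.3% of all genes did. The median difference was -0.23. The smallest p-values were those of Rrm1 (-0.61 ± 0.19, adjusted p = 0.0989), Kif15 (0.47 ± 0.22, adjusted p = 0.194) and Tyms (-0.51 ± 0.24, adjusted p = 0.200).

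With Imatinib, 1 member rose (7.79% of all genes) and 1 fell (6.27%). Kif15 stood at -5.24 and -4.80 in IR and at -4.27 and -4.11 in IR+Imatinib (0.83 ± 0.22, adjusted p = 0.0286). Rrm1 stood at 1.69 and 1.02 in IR and at 0.66 and 0.85 in IR+Imatinib (-0.60 ± 0.19, adjusted p = 0.0484). The groups did not overlap in either gene. Pcna followed, at 3.76 and 3.06 in IR and at 2.88 and 2.83 in IR+Imatinib (-0.56 ± 0.18, adjusted p = 0.0516).

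With Su, 1 member rose (10.5% of all genes) and 3 fell (16.1%). Kif15 rose by 1.37 ± 0.22 (adjusted p = 0.00152), to -3.57 and -3.73. Tyms stood at 1.58 and 0.72 in IR and at 0.36 and 0.20 in IR+Su (-0.87 ± 0.24, adjusted p = 0.0191). Pcna, at 2.83 and 2.82 in IR+Su, fell by 0.59 ± 0.18 (adjusted p = 0.0283), and Rrm1, at 0.82 and 0.68, fell by 0.61 ± 0.19 (adjusted p = 0.0302). In each of these 3 genes both IR+Su arrays were below both IR arrays, and each call was lost without IR 1, IR+Su 1 or IR+Su 2.

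With Ly+Su, 1 member rose (15.6% of all genes) and 2 fell (12.8%). Kif15 stood at -4.19 and -4.04 (0.90 ± 0.22, adjusted p = 0.00974). Tyms, at 0.30 and 0.40, fell by 0.80 ± 0.24 (adjusted p = 0.0267), and Rrm1, at 0.75 on both arrays, fell by 0.61 ± 0.19 (adjusted p = 0.0288). Both falls were lost without IR 1 or either IR+Ly+Su array, and the rise of Kif15 without IR 1 or IR+Ly+Su 2.

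With Ly+Imatinib, 6 members rose (11.1% of all genes) and 0 fell (8.04%), and the median difference was 0.72. Top2a stood at -3.07 and -3.87 in IR and at -1.62 and -2.47 in IR+Ly+Imatinib (1.43 ± 0.32, adjusted p = 0.0109). Kif15, at -3.47 and -3.81, rose by 1.38 ± 0.22 (adjusted p = 0.00205). Mcm2 stood at -1.25 and -1.51 against -0.21 and -0.87 (0.84 ± 0.22, adjusted p = 0.0206). No IR array of these 3 genes reached an IR+Ly+Imatinib array. Ube2c (1.01 ± 0.29, adjusted p = 0.0305), Kif23 (0.90 ± 0.30, adjusted p = 0.0466, with overlap) and Mcm5 (0.76 ± 0.20, adjusted p = 0.0198) were the other members called.

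The calls against IR depended on the IR arrays. Differences of the called members kept their sign without either IR array, but not their size. Rrm1 differed with Su by -0.94 without IR 2 and by -0.27 without IR 1. With Imatinib it differed by -0.93 and -0.26. Kif15 differed with Su by 1.59 without IR 2 and by 1.15 without IR 1. Top2a differed with Ly+Imatinib by 1.03 without IR 2, 1.83 without IR 1 and 1.00 without IR+Ly+Imatinib 1.

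Markers of other cell types moved with these comparisons. Of 11 macrophage markers, 4 were lower than IR with Imatinib, 8 with Su, 2 with Ly+Imatinib and 8 with Ly+Su. Of 9 B and plasma cell markers, 2 were higher with Ly, 3 with Imatinib, 7 with Su, 3 with Ly+Imatinib and 7 with Ly+Su. Of 8 fibroblast markers 2 were lower with Su and 1 with Ly+Su, and of 8 endothelial markers 2 were higher with Imatinib, 3 with Su, 3 with Ly+Imatinib and 2 with Ly+Su. The summed macrophage level was 355 and 400.4 in IR and 294.0 to 387 in the other irradiated groups. Their part in the differences of the cell cycle genes was not tested.

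Cdkn1a was lower than IR with Su (-1.68 ± 0.35, adjusted p = 0.00505) and Ly+Su (-1.48 ± 0.35, adjusted p = 0.00892). It stood at 3.21 and 2.41 in IR, at 1.19 and 1.07 in IR+Su and at 1.14 and 1.51 in IR+Ly+Su, with no overlap. The differences with Ly (-0.71), Imatinib (-0.85) and Ly+Imatinib (-0.86) did not pass (adjusted p = 0.215, 0.10 and 0.0906). Within drug arms, Cdkn1a rose with irradiation alone (1.55 ± 0.35, adjusted p = 0.0154) and in the Ly+Imatinib arm (1.82 ± 0.35, adjusted p = 0.0137). In the Su arm its difference was 0.02 ± 0.35 (adjusted p = 0.977).

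The combined treatments were then set against their single drugs in irradiated lung, with the groups of each comparison on different slides. IR+Ly+Imatinib against IR+Ly had 4 members higher (2.79% of all genes), Top2a (1.49 ± 0.32, adjusted p = 0.0205), Rrm2 (1.22 ± 0.31, adjusted p = 0.0463), Kif15 (0.91 ± 0.22, adjusted p = 0.0346) and Mcm5 (0.80 ± 0.20, adjusted p = 0.0421). In Top2a the IR+Ly arrays were at -3.63 and -3.44 and in Rrm2 at -2.83 and -3.28, below both IR+Ly+Imatinib arrays. The calls did not hold without IR+Ly+Imatinib 1, IR+Ly 1 or IR+Ly 2. Top2a differed by 1.06 without IR+Ly+Imatinib 1 and by 1.92 without IR+Ly+Imatinib 2.

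IR+Ly+Imatinib against IR+Imatinib had 0 calls in limma (1.46% of all genes) and 21 unadjusted p-values under 0.05 (9.6% of all genes). All 37 differences were positive, with a median of 0.75. The 3 smallest p-values were those of Mcm5 (0.68 ± 0.20, adjusted p = 0.146), Ube2c (0.94 ± 0.29, adjusted p = 0.193) and Ccnb2 (1.18 ± 0.39, adjusted p = 0.233). In Ccnb2 the IR+Imatinib arrays stood at 0.04 and 0.29 and the IR+Ly+Imatinib arrays at 1.83 and 0.86.

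IR+Ly+Su against IR+Ly had 0 calls in limma (3.25% of all genes) and 3 unadjusted p-values under 0.05 (16.9% of all genes), of Top2a (0.76 ± 0.32, adjusted p = 0.242), Kif23 (0.66 ± 0.30, adjusted p = 0.279) and Rrm2 (0.68 ± 0.31, adjusted p = 0.280). Against IR+Su it had 0 calls in limma (3.24% of all genes) and 0 at an unadjusted p under 0.05 (9.06% of all genes). There the smallest p-values were those of Kif15 (-0.46 ± 0.22, adjusted p = 0.553), Aurkb (0.44 ± 0.56) and Mcm5 (0.15 ± 0.20), and the median was 0.04.

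In unirradiated lung the drugs were compared with no treatment, 5 comparisons that share the 2 untreated arrays. All but the one with Ly lay across slides, so drug and slide cannot be told apart in them. The untreated arrays had the lowest levels of the members, with medians of -0.58 and -0.60 relative to each gene's own mean. Kif15 was the member called. Its probe was not above background on the untreated arrays, at -5.43 and -5.77. With Imatinib it stood at -4.33 and -4.56 and rose at least 1.67-fold (measured difference 1.16 ± 0.22, adjusted p = 0.0438), where 0.0728% of all genes rose. With Ly+Imatinib it stood at -4.01 and -4.43 and rose at least 1.94-fold (1.38 ± 0.22, adjusted p = 0.00632), where 1.8% of all genes rose.

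Kif15 did not pass with Ly (-4.28 and -3.98, at least 2.07-fold, adjusted p = 0.0596) or with Ly+Su (-4.52 and -4.72, at least 1.48-fold, adjusted p = 0.0603). Nor did it with Su (-4.85 and -5.24, adjusted p = 0.196), where its probe was above background on 1 of 2 arrays. All 5 drug groups lay above both untreated arrays in Kif15. The call with Imatinib was lost when any 1 of the 4 arrays was left out and the call with Ly+Imatinib when Ly+Imatinib 1 was, and the 12 Kif15 levels of the irradiated groups, at -5.24 to -3.47, included IR at -5.24 and -4.80.

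With Ly, Su and Ly+Su, 0 members were called in limma, where 0.00485%, 2.73% and 0.723% of all genes were. At an unadjusted p under 0.05 there were 3, 4 and 3 members, where 5.67%, 17.3% and 13.3% of all genes passed. The other members with the smallest p-values were Bub1b (0.82 ± 0.32, adjusted p = 0.847) and Cdk1 (1.10 ± 0.50, adjusted p = 0.869) with Ly, and Cdk1 (0.96 ± 0.50, adjusted p = 0.542) and Tk1 (0.48 ± 0.29, adjusted p = 0.630) with Imatinib. With Su they were Rrm1, at 1.23 on both arrays against 0.79 and 0.44 (0.62 ± 0.19, adjusted p = 0.10), and Cenpa (0.92 ± 0.29, adjusted p = 0.114). With Ly+Imatinib they were Cenpa (1.02 ± 0.29, adjusted p = 0.0807) and Cdk1 (1.43 ± 0.50, adjusted p = 0.148), and with Ly+Su Cdk1 (1.34 ± 0.50, adjusted p = 0.241) and Cenpa (0.67 ± 0.29, adjusted p = 0.337). Cdk1 was above both untreated arrays, at -4.65 and -3.80, in every unirradiated drug group.

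The median over members against untreated was 0.23 with Ly, 0.23 with Imatinib, 0.26 with Su, 0.40 with Ly+Imatinib and 0.42 with Ly+Su, while the medians over all genes lay between -0.03 and 0.02. Mki67 differed from untreated by 0.36 to 0.43 over the 5 drugs, and Pcna by -0.04 to 0.06, and neither passed in any of them.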

How the data were processed

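Total RNA of 24 mouse lung samples was hybridised singly, labelled with Cy3, to Agilent arrays, and spots were read with Feature Extraction 9.1.3.1, per the file headers. The deposited intensity used was the processed signal, background-subtracted by the authors' scanner software per the file headers. Spots called outliers were left out, spots of a probe averaged, and levels scaled as log2 to the 75th percentile per array. Of 41174 probes, 41121 were usable, and 22951 were named by accession, 6659 by symbol and 3109 by synonym in the RefSeq table, while 8455 kept the file's name. The probe with the highest mean stood for a gene. A gene was tested where both arrays in any group were well above background (20616 of 27655). These were fitted with limma 3.58.1 in R 4.3.3, 1 mean per group, residual df 12, all arrays, and tested at an adjusted p under 0.05, after the script was tested on simulated data.

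The members, the wider lists, markers and tests were chosen with earlier results of these data known. All 38 members are accounted for. Mki67, Top2a, Cdk1, Ccnb1, Foxm1, Mcm2, Mcm6, Pcna and Rrm2 are followed, with the 6 highest and 6 lowest averaged differences, the called members or 3 smallest p-values of other comparisons, the 4 highest and 2 lowest of each wider list, Cdkn1a, and promoters of the 2 highest members of a role group, up to 6. For the second IR+Su array the title and the source name differ in the replicate number, and the title was used. Alternatives covered normalization, background correction, filter, probe choice, arrays left out, replicate and slide blocks. Figures were drawn with matplotlib 3.10.9. Some genes that the rule names in a wider list are not reported here. The number of arrays limits the precision.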

Additional observations from a re-analysis of the deposited data

Results flagged for a closer look

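E2f4 differed between drug arms in its irradiation difference by the F test of the interaction (limma adjusted p = 0.00251). Its irradiation difference was 0.13 with no drug (adjusted p = 0.491), 0.30 with Ly (0.779), 1.17 with Imatinib (0.000182), 1.18 with Su (0.000146), 1.34 with Ly+Imatinib (5.16e-05) and 1.55 with Ly+Su (9.82e-06). The IR and IR+Ly arrays, which shared a slide, stood at -4.12 to -3.97, against -4.46 to -4.09 on the unirradiated arrays, and the irradiated arrays of the other slides at -3.23 to -2.72. The part of the slide in this pattern cannot be told apart from that of the drugs.

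In 3 members, arms whose arrays did not overlap moved in opposite directions. The share of all genes that did so was not counted. In IR against untreated alone, 23.7% of all genes were higher without overlap. Rrm1 had an irradiation difference of 0.75 with no drug and of -0.48 with Su. Tyms had 0.64 with no drug and -0.29 with Su. Kif15 had 1.39 with Su and -0.42 with Ly. The F test over the 6 arms gave these differences between arms adjusted p-values of 0.153, 0.354 and 0.0774, so none passed, and the difference between the 2 arms alone was not tested.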

How the results depend on the processing

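The averaged irradiation count of 31 members was 30 with quantile normalization, 31 with no filter, 26 with only genes above background on all 24 arrays, 26 with the mean of all probes, 31 with the replicate block and 30 to 34 with single arrays left out. It was 27 with slide as a random block, where Mcm2, Kif11, Kif15 and Nusap1 were lost (adjusted p = 0.0789, 0.0591, 0.0704 and 0.12), and 0 as means of slides, 3 against 3. Normexp background correction gave 9. On 7 arrays its fitted background lay more than 50 below the 1st percentile of the signal, and on 0 arrays once spots with a feature or background outlier flag were kept out of its parameters, an alternative chosen after seeing the data that gave 29. The slide block could not be fitted for the other comparisons and was not run there. The replicate numbers did not pair the arrays (median correlation of deviations 0.04 over 66 pairs, 20 of them above 0.1), and the replicate block changed no count of calls by over 1.5 times.

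Quantile normalization gave, as members called, IR+Imatinib against IR 0, IR+Su against IR 2, IR+Ly+Su against IR 1, Ly against untreated 1, Imatinib against untreated 0 and IR+Ly+Imatinib against IR+Ly 2. Normexp gave IR against untreated 1, IR+Su against Su 0, IR+Ly+Imatinib against Ly+Imatinib 12 (8 higher, 4 lower), and against IR 0 for IR+Imatinib, 1 for IR+Su, 0 for IR+Ly+Imatinib and 0 for IR+Ly+Su, with 0 for Imatinib and Ly+Imatinib against untreated and for IR+Ly+Imatinib against IR+Ly. Normexp with its parameters from spots without such a flag gave IR+Su against Su 1, IR+Imatinib against IR 1, Imatinib and Ly+Imatinib against untreated 0 and IR+Ly+Imatinib against IR+Ly 1.

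No filter gave IR against untreated 3, IR+Ly+Imatinib against Ly+Imatinib 2, IR+Ly+Su against Ly+Su 1, IR+Imatinib against IR 1, Imatinib against untreated 0 and IR+Ly+Imatinib against IR+Ly 1. The filter on all 24 arrays gave IR against untreated 10, IR+Su against Su 1, 10 in the Ly+Imatinib arm, 0 for Imatinib and Ly+Imatinib against untreated and 2 for IR+Ly+Imatinib against IR+Ly. Over all genes that filter gave 3110 calls in IR against untreated and 677 in the Ly+Imatinib arm. The mean of probes gave IR against untreated 3, IR+Su against Su 0, IR+Imatinib against IR 1 and IR+Su against IR 1 (both lower), Imatinib and Ly+Imatinib against untreated 0, IR+Ly+Imatinib against IR+Ly 2 and IR+Ly+Su against IR+Su 1. Fits of only the groups compared gave more calls for IR+Su against Su, where the share of all genes is not given here. They gave 0 for IR against untreated, the Ly+Imatinib arm, IR+Imatinib, IR+Su, IR+Ly+Imatinib and IR+Ly+Su against IR, Imatinib and Ly+Imatinib against untreated and IR+Ly+Imatinib against IR+Ly. Beyond the parameters of normexp, the cause was not tested. The ranges that follow come from fits that leave 1 array in a group. Without IR 2, calls over all genes also rose in the comparisons with IR and in the interaction. These ranges are therefore not read as results about the members.

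With single arrays left out the counts ranged from 0 to 34 for IR against untreated, 0 to 0 for the Ly arm, 0 to 1 for the Imatinib arm, 1 to 2 for the Su arm, 0 to 20 for the Ly+Imatinib arm and 0 to 0 for the Ly+Su arm. Against IR they ranged from 0 to 26 for Ly, 0 to 20 for Imatinib, 1 to 21 for Su, 1 to 26 for Ly+Imatinib and 0 to 19 for Ly+Su. Against untreated they ranged from 0 to 1 for Ly and for Ly+Imatinib, and were 0 for Imatinib, Su and Ly+Su. They ranged from 0 to 12 for IR+Ly+Imatinib against IR+Ly, 0 to 3 against IR+Imatinib, 0 to 0 for IR+Ly+Su against IR+Ly or IR+Su, and 0 to 12 for the interaction.

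The averaged difference changed sign for Pcna with quantile normalization (0.011) and normexp (0.028), with normexp for Aurkb (-0.15), Bub1 (-0.23), Kif11 (-0.26), Kif15 (-0.31) and Anln (-0.20), and with the mean of probes for Rrm1 (-0.20) and Kif15 (-0.18). Of the other values of single members, 1194 kept their direction and side of the threshold, 45 lost the call and 4 gained it. Dim probes limit Aurkb, Anln, Kif11 and Kif15 most.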
